A study of Homo sapiens with 12 samples.

Results

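The branch site and U2 recruitment factors described here are 10 genes, U2AF1, U2AF2, SF1, DDX46, DDX42, PUF60, RBM17, RBM48, SUGP1 and DHX15. They were taken by name from 18650 coding genes with an annotated 3′ end, with no threshold on a measured value, though earlier results of these data were known. The cells were 22Rv1, a human prostate cancer line with luminal features, and in every group, controls included, they carried the C1111S form of SF3B1, in which serine replaces a cysteine of this U2 protein. There were 4 groups of 3 libraries: the stereoprobe WX-02-23 at 20 µM for 3 h, the stereoprobe WX-02-43 at 20 µM for 3 h, PladB (pladienolide B, a natural product that binds the SF3b complex) at 10 nM for 3 h, and the solvent DMSO at 0.1% v/v. Each group then received 4-thiouridine at 100 µM for 1 h. The labels do not say whether the 3 libraries of a group came from separate cultures, so p-values measure the spread between these libraries, which may be technical.

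4-thiouridine enters RNA made during the labelling hour, and after alkylation it is read as C in place of T. Reads that hold such changes are named T>C reads here, and the percentage of a gene's reads that are T>C reads is its labelled share. A gene's conversions per T>C read are the deposited count of changes in its interval, divided by its T>C reads. Conversions per T>C read and the labelled share depend on how many T positions a read covers, so a gene is tested only against itself between groups, and its place among other genes is a description. Coding genes received 12331501 to 21414162 reads per library, of which 826620 to 2094217 were T>C reads. All 8 prostate luminal markers were detected, with a summed level of 2501 to 2829 CPM (reads scaled to a common library size) in WX-02-23 libraries, 2683 to 2806 CPM in WX-02-43 libraries and 3042 to 3220 CPM in PladB libraries, against 3113 to 3347 CPM in DMSO libraries. It was lower in every stereoprobe library than in any DMSO library. The 3 basal markers, KRT5, TP63 and KRT14, summed to 0 to 0.14 CPM in WX-02-23 libraries and to 0 in the other groups. KRT5 and TP63 were at 0 in every library. The summed level of 4 fibroblast markers was 12.9 to 21.0 CPM in WX-02-23 libraries, 13.5 to 17.7 CPM in WX-02-43 libraries and 19.1 to 23.0 CPM in PladB libraries, against 9.18 to 12.3 CPM in DMSO libraries, with COL1A2 at 0. This fibroblast sum was higher in every library of each compound than in any DMSO library. The immune markers summed to at most 4.30 CPM, in a PladB library, and the endothelial markers to at most 0.93 CPM, in a WX-02-23 library. The share of all genes whose all-read levels stand apart in this way was not counted. The part of the luminal and fibroblast lists in the results was not tested.

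Over all coding genes together, the labelled share was 9.64% ± 0.22 in WX-02-23 libraries, 9.10% ± 0.28 in WX-02-43 libraries and 5.44% ± 0.19 in PladB libraries, against 9.45% ± 0.43 in DMSO libraries (SD, n = 3 each). The conversions per T>C read were 1.99 ± 0.01 in WX-02-23 libraries, 2.408 ± 0.004 in WX-02-43 libraries and 1.38 ± 0.03 in PladB libraries, against 1.81 ± 0.03 in DMSO libraries. All T>C levels below are CPM of the T>C reads of coding genes, with edgeR's TMM scaling between libraries, so after PladB they are relative to a smaller pool of new RNA. No library without 4-thiouridine was used here, and T>C reads from sequence variants or read errors were not subtracted. Whether the deposited counts already leave out sequence variants was not tested.

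Before an intron is removed, its branch site and 3′ end are recognised in steps. SF1 binds the branch site, U2AF2 the pyrimidine tract after it, and U2AF1, the partner of U2AF2, the AG at the intron's end. The U2 particle then replaces SF1 at the branch site, with SF3B1 clamped around the paired branch site and RNA helicases driving the exchange.

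A gene is called where its adjusted p is under 0.05 in edgeR's quasi-likelihood test, with Benjamini-Hochberg adjustment over all genes tested, and all 10 genes passed the filter on low counts in every readout. After PladB, T>C reads of RBM48 rose 7.26-fold and those of U2AF2 rose 2.63-fold, so that 2 of 10 genes were called, both higher, where 10.6% of all 10722 genes tested were called and 4.72% were called higher. In all reads, old and new RNA together, RBM48 and U2AF2 rose and RBM17 fell after PladB, which is 3 of 10 genes where 30.1% of all 13178 genes were called, 13.9% higher and 16.3% lower. The labelled share of 1 gene, U2AF1, was called lower, where 11% of all genes were called, so its count says little about these genes. The median log2 change of T>C reads over the 10 genes was 0.59 after PladB, beside -0.36 over all genes tested.

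**Figure D1:**
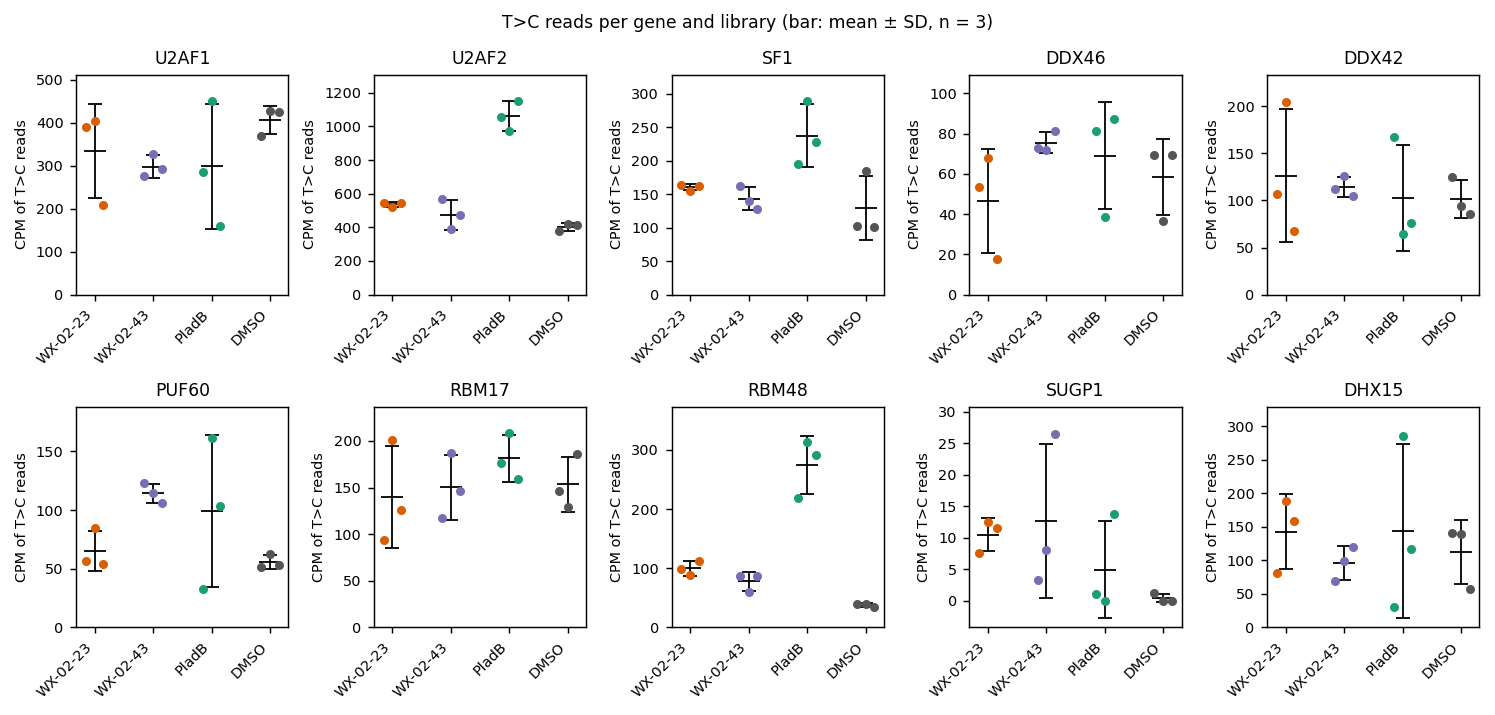
T>C reads in CPM (y axis, one scale per panel) for each of the 10 genes in the 12 libraries, by group (x axis). Points are libraries, and bars are the mean ± SD of 3. RBM48 and U2AF2 in PladB libraries sit above every library of the other groups, while DHX15 and PUF60 are spread widely in PladB libraries.

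U2AF2 binds the pyrimidine tract, and its counted 3′ end lies on chromosome 19 at 56185435 to 56186082 on the plus strand (hg19, 648 bases). It had 1056, 976 and 1151 CPM of T>C reads in PladB libraries, against 378, 422 and 411 CPM in DMSO libraries. The 3 PladB libraries all lay above the DMSO libraries by more than the spread within either group. The log2 change was 1.39 ± 0.20 (SE, edgeR adjusted p = 1.87e-06). Its all-read level was 417, 361 and 417 CPM in PladB libraries, against 271, 326 and 301 CPM in DMSO libraries. These groups did not overlap either, and the log2 change of all reads was smaller, 0.41 ± 0.11 (SE, edgeR adjusted p = 0.00243).

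The labelled share of U2AF2 was 14.2%, 14.9% and 14.5% in PladB libraries, against 13.6%, 11.8% and 13.1% in DMSO libraries. Every PladB library was thus higher, in a group where the share over all coding genes was lower. The fitted log2 change of the ratio of T>C reads to other reads was 0.21 (95% interval -0.29 to 0.72), which was not called (edgeR adjusted p = 0.584). The T>C reads of U2AF2 held few changes each, with 1.03, 1.00 and 1.05 conversions per T>C read in PladB libraries, against 1.31, 1.14 and 1.35 in DMSO libraries. The mean was thus close to 1 in all 3 PladB libraries, and lower there than in any DMSO library. Of the genes with at least 20 T>C reads in each library of the group, 16.7% were lower than U2AF2 in PladB libraries, and 12.5% in DMSO libraries. The part of sequence variants and read errors in these U2AF2 reads was not tested.

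U2AF1 recognises the AG at the 3′ splice site, and its counted 3′ end lies on chromosome 21 at 44513066 to 44513211 on the minus strand (hg19, 146 bases). It had 284, 450 and 159 CPM of T>C reads in PladB libraries, against 369, 426 and 424 CPM in DMSO libraries. The PladB libraries were spread on both sides of the DMSO libraries, and the log2 change of -0.45 (95% interval -1.03 to 0.14) was not called (edgeR adjusted p = 0.36). Its labelled share was 2.98%, 5.16% and 1.72% in PladB libraries, against 6.31%, 6.90% and 7.04% in DMSO libraries. The groups did not overlap, and the log2 change of the ratio of T>C to other reads was -1.22 ± 0.36 (SE, edgeR adjusted p = 0.0432). That call was lost when any DMSO library, PladB replicate 1 or PladB replicate 3 was left out, with adjusted p from 0.0806 to 0.136, and under 1 other setting (0.0532). The fall was close to that of all genes tested, whose median was -1.30.

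U2AF1 and U2AF2 work as a pair, and the ratio of their T>C reads is given as a description, since this pair was chosen after the values were seen. U2AF2 had 3.71, 2.17 and 7.23 T>C reads for each of U2AF1 in PladB libraries, against 1.03, 0.99 and 0.97 in DMSO libraries. The ratio was 1.40, 1.28 and 2.61 in WX-02-23 libraries and 2.05, 1.19 and 1.62 in WX-02-43 libraries. Every library of each compound was above all 3 DMSO libraries, which lay close together and enter all 3 comparisons. The share of other gene pairs that stand apart in this way was not counted, so a change particular to this pair is not shown. After PladB the log2 change of the ratio of T>C to other reads was -1.22 for U2AF1, near the median of -1.30 over all genes. The part of sequence variants in the U2AF2 reads was not tested. In all reads the ratio was 0.78, 0.75 and 0.85 in PladB libraries, against 0.48, 0.58 and 0.52 in DMSO libraries. The stereoprobe libraries overlapped the DMSO libraries in that ratio, at 0.62, 0.52 and 0.55 for WX-02-23 and 0.53, 0.42 and 0.52 for WX-02-43. Of the reads counted for U2AF1, 1.27% were marked as multimapping, with 2.14% in the highest library. The part of these reads in its T>C counts was not tested.

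SF1 is the branch site binding protein, and its 4 nested intervals, the longest on chromosome 11 at 64532076 to 64533377 on the minus strand (hg19), were counted once. Its T>C level was 195, 289 and 228 CPM in PladB libraries, against 102, 185 and 102 CPM in DMSO libraries. No library overlapped, and the log2 change of 0.88 (95% interval 0.15 to 1.60) missed the threshold (edgeR adjusted p = 0.116). In all reads SF1 gave a log2 change of -0.12 (edgeR adjusted p = 0.565).

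PUF60 resembles U2AF2 and binds uridine-rich tracts, and its counted 3′ end lies on chromosome 8 at 144898514 to 144898689 on the minus strand (hg19). It had 32.7, 162 and 104 CPM of T>C reads in PladB libraries, against 51.3, 62.3 and 53.0 CPM in DMSO libraries. A PladB library was lower than every DMSO library and the other two were higher, and the log2 change of 0.84 (95% interval -0.30 to 1.97) was not called (edgeR adjusted p = 0.379).

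DDX46, the human Prp5, and DDX42 are helicases that bind SF3B1 around U2 loading. DDX46 had 81.3, 38.8 and 87.2 CPM of T>C reads in PladB libraries, against 69.2, 36.4 and 69.2 CPM in DMSO libraries. DDX42 had 168, 64.2 and 76.1 CPM in PladB libraries, against 124, 94.5 and 85.4 CPM in DMSO libraries. Both genes overlapped between the groups and neither was called, with log2 changes of 0.25 and 0.02 (edgeR adjusted p = 0.883 and 0.994). In all reads the log2 change was 0.26 for DDX46 (edgeR adjusted p = 0.175) and -0.31 for DDX42 (edgeR adjusted p = 0.158).

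RBM17, also called SPF45, binds SF3B1 through a U2AF-like domain. It was the only gene of the 10 whose all-read level fell after PladB by this test. The level was 123, 117 and 123 CPM in PladB libraries, against 192, 183 and 178 CPM in DMSO libraries. The groups stood far apart beside the spread within each, with a log2 change of -0.61 ± 0.12 (SE, edgeR adjusted p = 9.93e-05). Its T>C reads, which are relative to a smaller pool after PladB, showed no such gap. They were at 176, 208 and 159 CPM in PladB libraries, against 146, 129 and 186 CPM in DMSO libraries (log2 change 0.24, edgeR adjusted p = 0.78). Scaled to all reads, their log2 change was -0.56 (edgeR adjusted p = 0.313), so this contrast depends on the scaling. The log2 change of the ratio of T>C to other reads was 0.06 (edgeR adjusted p = 0.871). The counted 3′ end of RBM17 lies on chromosome 10 at 6157520 to 6159422 on the plus strand (hg19).

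**Figure D2:**
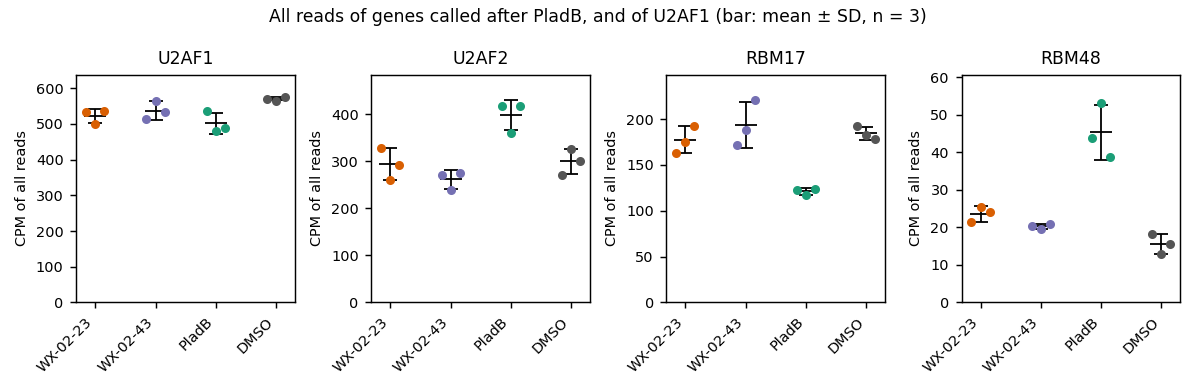
All reads in CPM (y axis) for U2AF1, U2AF2, RBM17 and RBM48 in the 12 libraries, by group (x axis), with points for libraries and bars for the mean ± SD of 3. PladB libraries sit above DMSO libraries for U2AF2 and RBM48, and below them for RBM17.

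RBM48 differs in its known role, since it is a factor of the minor spliceosome, which removes a rare class of introns, and not one of the proteins that load U2. Its counted 3′ end lies on chromosome 7 at 92166252 to 92169795 on the plus strand (hg19, 3544 bases). It had 219, 313 and 292 CPM of T>C reads in PladB libraries, against 39.8, 39.2 and 34.3 CPM in DMSO libraries. Every PladB library was several times any DMSO library, with a log2 change of 2.86 ± 0.45 (SE, edgeR adjusted p = 1.46e-05). All reads were at 43.9, 53.2 and 38.7 CPM in PladB libraries, against 18.2, 12.9 and 15.6 CPM in DMSO libraries. That gap also exceeded the spread, with a log2 change of 1.54 ± 0.25 (SE, edgeR adjusted p = 7.08e-06).

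The labelled share of RBM48 was high beside that of other genes in every group, on few reads. In DMSO libraries 69 of 324, 56 of 201 and 55 of 262 reads were T>C reads. Its labelled share was 28.0%, 32.4% and 39.7% in PladB libraries, against 21.3%, 27.9% and 21.0% in DMSO libraries. The groups only just failed to overlap, and the log2 change of the ratio of T>C to other reads was 0.71 (95% interval -0.91 to 2.34), which was not called (edgeR adjusted p = 0.566). In DMSO libraries 86.1% of genes had a lower mean share than RBM48, and in PladB libraries 98.1% did. RBM48 held 1.84, 2.67 and 1.89 conversions per T>C read in PladB libraries, against 2.23, 1.57 and 2.13 in DMSO libraries. These means overlapped between the groups and lay above those of U2AF2 in every library of both, and 94.6% of genes had fewer per read than RBM48 in PladB libraries.

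SUGP1 binds SF3B1 and carries a G-patch that activates DHX15, and its short 3′ end lies on chromosome 19 at 19387322 to 19387456 on the minus strand (hg19, 135 bases). It gave few T>C reads, with 1, 0 and 10 in PladB libraries, against 2, 0 and 0 in DMSO libraries. A single PladB library, replicate 3, held nearly all of them. Over the group, 11 of 839 reads were T>C reads in PladB libraries and 2 of 995 in DMSO libraries, a ratio of shares of 6.52 with a 95% counting interval of 1.42 to 60.6, which covers counting error only. The fit called no change of T>C reads (edgeR adjusted p = 0.425).

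DHX15, the human Prp43, takes spliceosomes apart, and its counted 3′ end lies on chromosome 4 at 24529087 to 24529546 on the minus strand (hg19). It had 30.7, 285 and 116 CPM of T>C reads in PladB libraries, against 141, 139 and 56.7 CPM in DMSO libraries. The lowest and the highest of these libraries were both PladB libraries, and the log2 change of 0.35 (95% interval -0.71 to 1.41) was not called (edgeR adjusted p = 0.761).

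**Figure D3:**
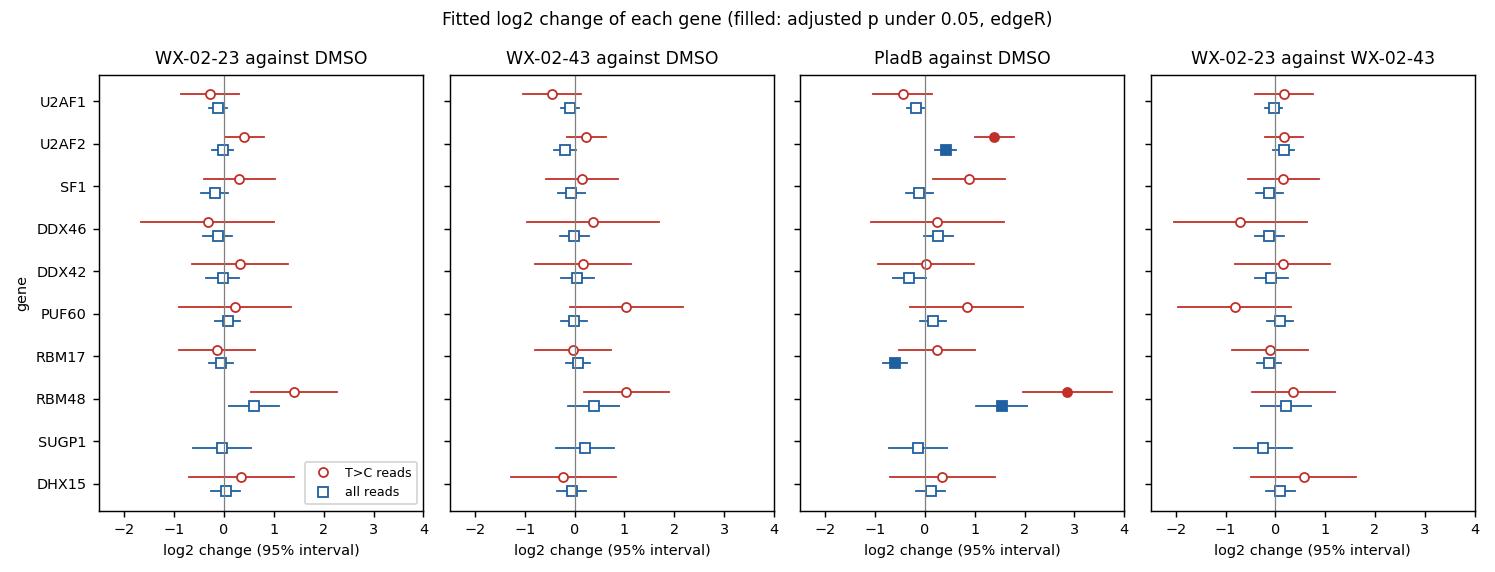
Fitted log2 change (x axis) of each gene (y axis) with its 95% interval, in T>C reads (circles) and all reads (squares), for each compound against DMSO and for WX-02-23 against WX-02-43. Filled symbols passed an adjusted p of 0.05, and they are in the PladB panel alone, for U2AF2 and RBM48 in both readouts and for RBM17 in all reads. SUGP1 is left out for T>C reads, since its interval runs past the axis.

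The T>C changes after PladB depend on the pool they are scaled to. With T>C reads scaled to the library's total of all reads, the median log2 change of all genes was -1.15, against -0.36 under the scaling used here, and 85 genes were called higher and 1749 lower, against 506 higher and 634 lower. RBM48 stayed called higher with a log2 change of 2.06 (edgeR adjusted p = 0.00191). U2AF2 stayed called higher with 0.60 (edgeR adjusted p = 0.0347). U2AF1 was then called lower with -1.23 (edgeR adjusted p = 0.00283). The log2 change ran below 0 under that scaling for DDX46, DDX42, RBM17 and DHX15, none of them called, and above 0 for SF1 and PUF60, which were not called either.

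**Figure D4:**
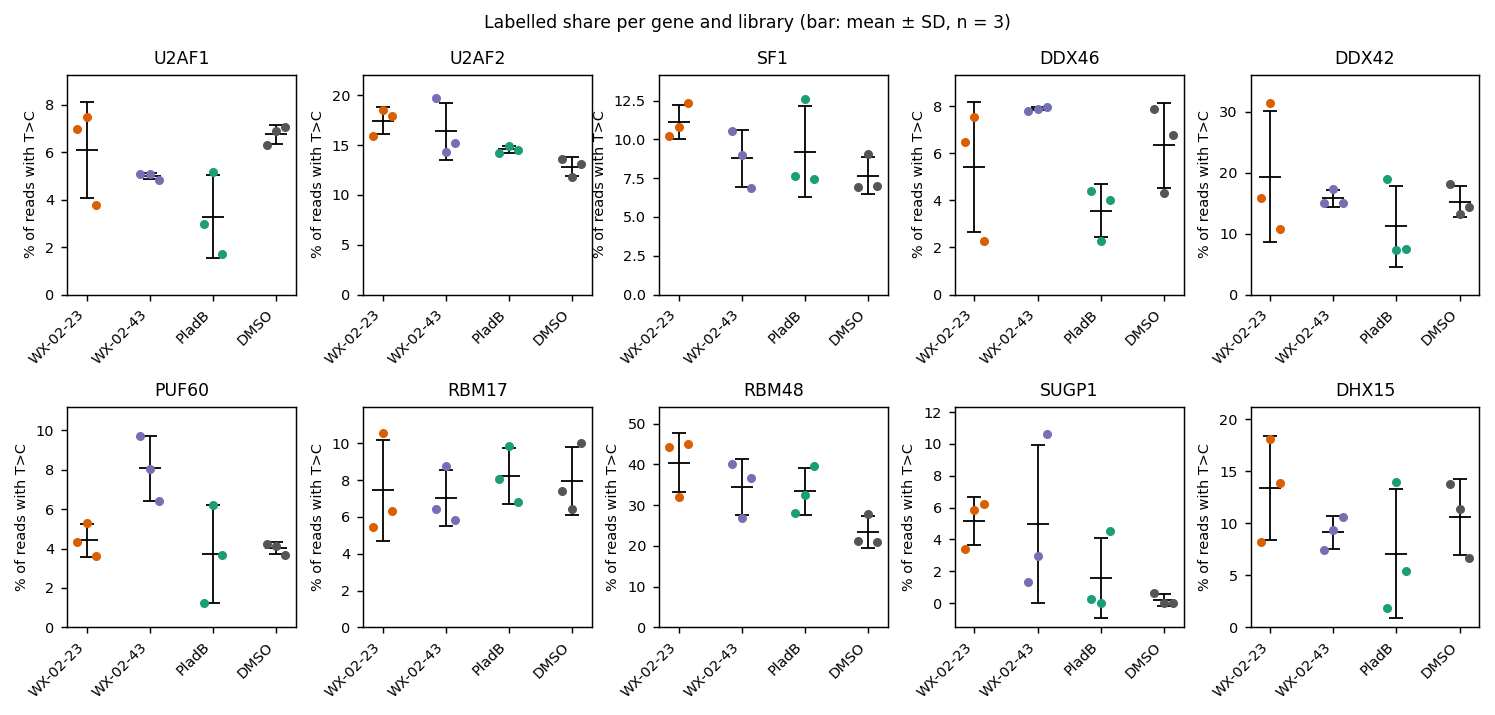
Labelled share, the percentage of a gene's reads with a T>C change (y axis, one scale per panel), for each of the 10 genes in the 12 libraries by group (x axis), with points for libraries and bars for the mean ± SD of 3. RBM48 and U2AF2 sit higher in PladB libraries than in DMSO libraries and U2AF1 sits lower, while the other genes overlap.

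In labelled share, PladB and DMSO libraries did not overlap for 3 of 10 genes, where 35.2% of all genes did not. RBM48 and U2AF2 were higher in every PladB library, and 0.993% of all genes were higher in that way. U2AF1 was lower in every PladB library, and 34.2% of all genes were lower in that way. The fitted log2 change of the ratio of T>C to other reads was above 0 for 5 of 10 genes, RBM48, U2AF2, SF1, RBM17 and SUGP1, and for 15.96% of all genes tested. Its median was -0.15 over the 10 genes and -1.30 over all genes, and all 10 genes lay above the median of all genes. Summed over the 10 genes, the share was 8.30% ± 1.37 in PladB libraries, against 8.52% ± 0.24 in DMSO libraries (SD, n = 3 each). Without U2AF2 and RBM48, a choice made after their values were seen, it was 5.26% ± 1.72 in PladB libraries, against 7.37% ± 0.18 in DMSO libraries.

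Of the 9 genes with at least 20 T>C reads in each library, U2AF1, U2AF2 and DDX46 held fewer conversions per T>C read in every PladB library than in any DMSO library, where 33.8% of all genes did. U2AF1 had 1.08, 1.30 and 1.05 in PladB libraries, against 1.60, 2.13 and 1.52 in DMSO libraries. DDX46 had 1.33, 1.00 and 1.00 in PladB libraries, against 1.52, 1.46 and 2.11 in DMSO libraries, on as few as 29 T>C reads in a library. The exact permutation p was 0.1 for each of the 3 genes, the smallest possible. PUF60 had 0.92 conversions per T>C read in PladB replicate 3 and 0.98 in DMSO replicate 3. The deposited conversions of an interval can thus be fewer than its T>C reads, and the reason was not tested. A value near 1 is therefore not an exact count of changes in each read.

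**Figure D5:**
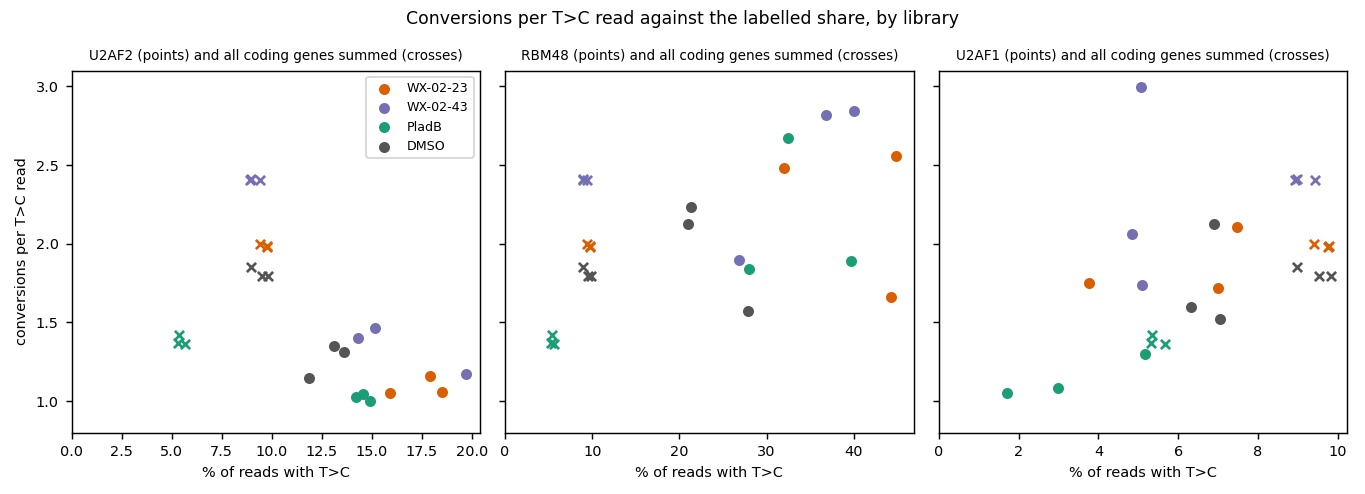
Conversions per T>C read (y axis) against the labelled share (x axis) for U2AF2, RBM48 and U2AF1, with 1 point per library coloured by group and crosses for all coding genes summed. U2AF2 in PladB libraries lies near 1 conversion per T>C read at a share of 14.2% to 14.9%, while RBM48 lies between 1.84 and 2.67 at a share of 28.0% to 39.7%.

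WX-02-23 against DMSO called 0 of 10 genes in T>C reads, where 0.224% of all genes were called. It called 0 of 10 in all reads, where 0.698% were called, and 0 of 10 in labelled share, where 0.00933% were called. At an unadjusted p under 0.05, edgeR found 2 of the 10 genes in T>C reads, 1 in all reads and 2 in labelled share, where 4.53%, 8.7% and 3.36% of all genes had one. The nearest to a call was RBM48, with 98.9, 87.9 and 113 CPM of T>C reads in WX-02-23 libraries, against 39.8, 39.2 and 34.3 CPM in DMSO libraries. These groups did not overlap, and the log2 change was 1.40 (95% interval 0.54 to 2.26, edgeR adjusted p = 0.376). DESeq2, the other count test, called RBM48 (adjusted p = 0.00205), the single one called of the 7 genes to which it gave an adjusted p in T>C reads. Over all genes it called 69 of 10722 in T>C reads. In all reads DESeq2 called 0 of the 10 genes, and 146 of 13178 over all genes. The other alternatives gave RBM48 an adjusted p from 0.38 to 0.909 in T>C reads. Its labelled share was 44.3%, 32.0% and 44.9% in WX-02-23 libraries, above the 21.3%, 27.9% and 21.0% of DMSO libraries, and the fit did not call it (log2 change of the ratio 1.16, edgeR adjusted p = 1).

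The labelled share was higher in every WX-02-23 library than in any DMSO library for 4 of 10 genes, U2AF2, SF1, RBM48 and SUGP1, where 5.84% of all genes were higher in that way and 11% did not overlap in either direction. U2AF2 had 15.9%, 18.5% and 17.9% in WX-02-23 libraries, against 13.6%, 11.8% and 13.1% in DMSO libraries. SF1 had 10.2%, 10.8% and 12.4% in WX-02-23 libraries, against 6.94%, 9.06% and 7.0% in DMSO libraries. Each gap gave an exact permutation p of 0.1, the smallest possible. SUGP1 had 16, 15 and 19 T>C reads in WX-02-23 libraries, against 2, 0 and 0 in DMSO libraries. That is 50 of 1033 reads against 2 of 995, a ratio of shares of 24.1. Its 95% counting interval was 6.33 to 204, which covers counting error only. In the edgeR fit, the 95% interval of the log2 change of SUGP1 was -0.70 to 9.60 in T>C reads. It was 1.20 to 8.14 in labelled share, and neither was called.

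WX-02-43 against DMSO also called 0 of 10 genes in T>C reads, all reads and labelled share, where 0.0933%, 0.167% and 0% of all genes were called. At an unadjusted p under 0.05, edgeR found 1 of the 10 in T>C reads, 0 in all reads and 1 in labelled share, where 3.81%, 5.86% and 3.11% of all genes had one. DESeq2 called 0 of the 8 genes to which it gave an adjusted p in T>C reads, and 0 of 10 in all reads. Over all genes it called 47 of 10722 in T>C reads and 40 of 13178 in all reads. RBM48 had 86.6, 59.8 and 86.9 CPM of T>C reads in WX-02-43 libraries, against 39.8, 39.2 and 34.3 CPM in DMSO libraries. The groups did not overlap, and the log2 change was 1.04 (95% interval 0.18 to 1.90, edgeR adjusted p = 1). PUF60 had 123, 114 and 106 CPM in WX-02-43 libraries, against 51.3, 62.3 and 53.0 CPM in DMSO libraries, and its log2 change of 1.04 (95% interval -0.09 to 2.18) was not called either (edgeR adjusted p = 1).

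In labelled share, WX-02-43 and DMSO libraries did not overlap for 4 of 10 genes, where 11.3% of all genes did not. U2AF2, PUF60 and SUGP1 were higher in every WX-02-43 library and U2AF1 was lower, where 4.99% of all genes were higher and 6.28% lower in that way. PUF60 had 9.73%, 8.06% and 6.42% in WX-02-43 libraries, against 4.24%, 4.15% and 3.67% in DMSO libraries. U2AF1 had 5.07%, 5.08% and 4.84% in WX-02-43 libraries, against 6.31%, 6.90% and 7.04% in DMSO libraries. SUGP1 had 5, 12 and 39 T>C reads in WX-02-43 libraries, against 2, 0 and 0 in DMSO libraries, so 1 library held most of them. The comparisons of all 3 compounds share the same DMSO libraries, whose low SUGP1 and RBM48 values enter each of them.

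The stereoprobes were given at the same dose and time, and WX-02-23 against WX-02-43 called 0 of 10 genes in T>C reads, where 0.0466% of all genes were called. It called 0 of 10 in all reads and in labelled share, where 0.152% and 0% were called. None of the 10 had an unadjusted p under 0.05 in edgeR (2.85%, 5.52% and 2.78% of all genes in T>C reads, all reads and labelled share). DESeq2 called none of the 2 genes to which it gave an adjusted p in T>C reads and none of 8 in all reads. Over all genes it called 28 of 10722 in T>C reads and 38 of 13178 in all reads. The log2 difference in T>C reads of RBM48 was 0.36 (95% interval -0.48 to 1.20) and that of U2AF2 was 0.17 (95% interval -0.21 to 0.56). Differences of these sizes are within what the intervals leave possible, so a like response is not shown. The labelled share was lower in every WX-02-23 library than in any WX-02-43 library for PUF60 and DDX46, where 4.38% of all genes were lower in that way and 10.4% did not overlap in either direction. DDX46 had 6.46%, 7.52% and 2.27% in WX-02-23 libraries, against 7.81%, 7.88% and 7.94% in WX-02-43 libraries.

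Conversions per T>C read also differed between the stereoprobes. SF1 had 2.09, 2.15 and 2.18 in WX-02-23 libraries, against 3.34, 2.90 and 3.11 in WX-02-43 libraries. U2AF2 had 1.05, 1.06 and 1.16 in WX-02-23 libraries, against 1.17, 1.40 and 1.47 in WX-02-43 libraries. These 2 of 9 genes were lower in every WX-02-23 library, where 21.9% of all genes were, so the count is near that of genes at large. Against DMSO, no gene of the 9 stood apart in WX-02-23 libraries, where 14.6% of all genes did, and SF1 and DHX15 were higher in every WX-02-43 library, where 33.6% were.

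Genes that act beside these were counted from 3 lists. Of 12 SF3b, SF3a and U2 core subunits, 3 rose and 0 fell in T>C reads after PladB, and 7 rose and 0 fell in all reads. Of all genes, 4.72% rose in T>C reads, and in all reads 13.9% rose and 16.3% fell. Among them SF3B5, a small SF3b subunit, had 688.7 ± 25.9 CPM of T>C reads in PladB libraries, against 269.8 ± 75.4 CPM in DMSO libraries (SD, n = 3 each; log2 change 1.35, edgeR adjusted p = 0.000134). SF3B6, which sits at the branch site, had 301.1 ± 55.3 CPM of T>C reads in PladB libraries, against 90.1 ± 32.0 CPM in DMSO libraries (log2 change 1.74, edgeR adjusted p = 0.00177). The median log2 change of T>C reads was 0.63 over this list, beside -0.36 over all genes.

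Of 18 other U2-associated and 3′ splice site factors, 17 were tested in T>C reads, and 1 rose and 1 fell after PladB, where 10.6% of all genes were called. DDX39B, a helicase that works with U2AF2 in U2 loading and in RNA export, had 693.8 ± 116.7 CPM of T>C reads in PladB libraries, against 193.5 ± 74.4 CPM in DMSO libraries (log2 change 1.84, edgeR adjusted p = 4.16e-06). PTBP1, which competes with U2AF2 for pyrimidine tracts, had 50.3 ± 31.5 CPM in PladB libraries, against 182.3 ± 56.7 CPM in DMSO libraries (log2 change -1.85, edgeR adjusted p = 0.00866). In all reads 4 of the 18 rose and 5 fell, beside 13.9% and 16.3% of all genes. RBM39, a relative of U2AF2, was among those that fell, with 45.7 ± 4.0 CPM in PladB libraries, against 91.7 ± 6.7 CPM in DMSO libraries (SD, n = 3 each; edgeR adjusted p = 3.69e-06). In labelled share 3 fell, PTBP1, SUGP2 and CELF1, and 0 rose, out of 17 tested, where 11% of all genes fell.

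RBM48 works in the minor spliceosome, and of 9 other factors of that machine 1 rose and 0 fell in T>C reads after PladB, a count near the 10.6% of all genes called. That gene was PDCD7, a protein of the U11/U12 particle, with 290.8 ± 72.5 CPM in PladB libraries, against 130.6 ± 6.0 CPM in DMSO libraries (log2 change 1.16, edgeR adjusted p = 0.0296). In all reads PDCD7 rose and SNRNP48 fell, where 13.9% of all genes rose and 16.3% fell. In labelled share ZCRB1 fell, where 11% of all genes did. With either stereoprobe, against DMSO or against each other, 0 genes of the 3 lists were called in any readout by edgeR. At an unadjusted p under 0.05, edgeR found 2 of 38 tested genes of the lists in T>C reads for each stereoprobe against DMSO, with 3 of 39 for WX-02-23 and 4 for WX-02-43 in all reads and 0 and 2 of 38 in labelled share. The share of all genes with such a p was 4.53% for WX-02-23 and 3.81% for WX-02-43 in T>C reads, 8.7% and 5.86% in all reads, and 3.36% and 3.11% in labelled share. Between the stereoprobes it found 0 in T>C reads, 2 in all reads and 0 in labelled share. DESeq2 called RBM39 in all reads for WX-02-43 against DMSO, where it called 40 of 13178 genes, and no other gene of the lists in a stereoprobe comparison. It gave an adjusted p to 15 of them for WX-02-23, 21 for WX-02-43 and 6 between the stereoprobes in T>C reads, and to 36, 39 and 23 in all reads.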

How the data were processed

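SLAM-seq libraries (4-thiouridine labelling, alkylation, 3′ end sequencing) were made from RNA, per the labels' protocols, although the labels name the molecule as genomic DNA. Counts of reads and T>C reads per 3′ end interval were deposited as raw counts from slamdunk 0.4.3, per the file headers, with hg19 named in the submitters' processing notes. Of the other columns, the deposited fraction (conversion rate) was not used, and the deposited CPM gave only the library totals, 24670716 to 42190854 reads. Overlapping coding intervals of a gene were counted once, by the interval with most reads, and each of the 10 genes had 1 such cluster. T>C reads and all reads were tested with edgeR (TMM, filterByExpr, group term, all 12 libraries) and Benjamini-Hochberg adjustment. The labelled share was tested with edgeR on T>C and other reads of each library, with library as a block. CPM values in the text are relative to coding reads of the same kind, with TMM scaling, except those of the cell type markers, which have no TMM scaling. Scripts were tested on simulated data. The labels name no molecular identifiers, so 95% intervals of shares cover counting error only. Genes and lists were chosen with earlier results of these data known, and of the lists, up to 5 called genes per comparison could be named, by smallest adjusted p. The alternatives were DESeq2, other scalings, no filter on low counts, other read sums, a replicate block and each library left out. No sequence is shown, since no protein table or hg19 genome was used here.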

Additional observations from a re-analysis of the deposited data

How the results depend on the processing

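The calls of RBM48 and U2AF2 (T>C reads and all reads) and of RBM17 (all reads) after PladB held under every alternative run, including each library left out. With RBM48, log2 changes of T>C reads ran from 2.06 (T>C reads scaled to all reads) to 3.00, and with U2AF2 from 0.60 (the same scaling) to 1.45. By gene, the count of calls in T>C reads for WX-02-23 against DMSO was 1 under DESeq2, RBM48. The number called in labelled share after PladB was 0 with every interval summed plainly, and ranged from 0 to 1 with a library left out, U2AF1 being the gene concerned. Called under one alternative only were SF1 in T>C reads after PladB with plain sums (log2 change 0.86, edgeR adjusted p = 0.0256, range over alternatives 0.0256 to 0.897), U2AF1 in T>C reads after PladB scaled to all reads (range 0.00283 to 0.828) and U2AF1 in all reads after PladB under DESeq2 (-0.17, adjusted p = 0.0455, range 0.0455 to 0.248). Plain sums add the 4 nested intervals of SF1 separately, so the same read can be counted more than once.

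Changes that were not called could change sign. In T>C reads after PladB, scaling to all reads gave log2 changes of -0.56 for DDX46, -0.77 for DDX42, -0.56 for RBM17 and -0.45 for DHX15, as all genes moved down under that scaling. DDX42 also gave -0.06 under DESeq2, -0.062 under RLE size factors and -0.013 with the replicate block. With a library left out the range was -0.53 to 0.27 for DDX42, -0.001 to 0.53 for DDX46 and -0.62 to 0.84 for DHX15. Of 114 uncalled changes of the 10 genes over all comparisons, 42 changed sign under some alternative, and of the 6 called changes 0 did.

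Over all genes, calls in T>C reads after PladB numbered 1140, against 1961 under DESeq2 and 1834 scaled to all reads. DESeq2 called 69 genes for WX-02-23 and 47 for WX-02-43 in T>C reads, against 24 and 10, and 28 against 5 between them. In all reads DESeq2 called 146, 40 and 38 genes in these comparisons, against 92, 22 and 20. Without a low-count filter the T>C calls were 16 for WX-02-43 and 8 between the stereoprobes, and the all-read calls were 140, 36 and 33. With plain sums the T>C calls were 13 for WX-02-23 and 2 between the stereoprobes, and the all-read calls were 53 and 12. With a library left out they ranged from 12 to 23 and 1 to 3 in T>C reads, and from 41 to 86, 13 to 29 and 7 to 11 in all reads. In labelled share the range was 625 to 1189 after PladB, against 1182, and 0 to 1 for WX-02-23, against 1.

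Same-numbered libraries did not deviate together (18 pairs of T>C profiles, r from -0.025 to 0.026), so the numbers were not taken to pair them. With the replicate block, 2 of the 10 genes were called in T>C reads after PladB, 3 in all reads and 1 in labelled share, the same counts as without it. The planned comparison of separate 3′ ends could not be run, as each gene had 1. Depth limits SUGP1 most, with 0 to 39 T>C reads per library.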
